A study of Mus musculus with 2 samples.

Results

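The genes described here encode the ephrins and their Eph receptors, the semaphorins and plexins, the Slits and Robo receptors, and the netrins and Unc5 receptors, the main families of cell guidance molecules. They were chosen by name alone, as every probe whose gene name in the array files begins with Epha, Ephb, Efna, Efnb, Sema, Plxna to Plxnd, Slit, Ntn or Unc5 or is Robo1, Robo2 or Robo3. This gave 117 of 41174 probes and 65 genes. RNA of fetal thymic stromal cells was measured on 2 microarrays, each with RNA of reaggregation thymus organ culture (RTOC, in which dispersed cells are packed together on a membrane) in the Cy5 channel and RNA of flat 2D culture in a dish in the Cy3 channel. One array held C57BL/6 cells from E14.5 thymus lobes after 8 days of organ culture and the other held cells from E15.5 lobes after 9 days. All lobes, and so both cultures on both arrays, had been treated with 1.35 mM deoxyguanosine, which depletes developing blood cells, and all cells were harvested 72 h after plating. The comparison asks how transcript levels differ between the RTOC form of culture and 2D culture.

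Eph receptors are receptor tyrosine kinases whose ephrin ligands sit on the surface of neighbouring cells, so that contact signals into both cells. A-type ephrins are held by a lipid anchor, whereas B-type ephrins span the membrane. EphB receptors and B-type ephrins are known for organising the epithelium of the thymus and for placing the organ during its descent. Semaphorins signal through plexins, with neuropilins as co-receptors for most secreted class 3 members. Slits bind Robo receptors, and netrins bind Dcc and Unc5 receptors; these families are best known from growing axons and vessels.

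Values are log2 ratios of RTOC over 2D culture after quantile normalization of the 4 channels, so that a positive value means a higher signal in RTOC, and signals are normalized log2 intensities. A gene is given by its brightest tested probe. A probe was tested with limma where each array had at least 1 channel well above background, and a gene is called higher or lower where the two-sided p, adjusted over all tested probes by the method of Benjamini and Hochberg, was below 0.05. Of the 65 genes, 53 were tested. With 2 arrays the fit had 1 residual degree of freedom, and an exact sign-flip test of a single value could not give p below 0.5. No array had the dyes exchanged, 1 slide and 1 scan held both, and embryonic stage cannot be told apart from array or from the days of organ culture. The p-values rest only on the spread between these arrays, in which a difference between stages and technical spread are mixed. The fit draws the spread of each probe toward a value shared by all tested probes. An SE can therefore be far from a gene's own spread, as for Sema6d, with an SD of 0.025 and an SE of 0.25. In a culture of mixed cells, fewer cells of a type and less RNA per cell cannot be told apart.

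Of the 53 tested guidance genes, 22 were called, 10 higher and 12 lower in RTOC. Among all 13506 named genes tested, 28.1% were called, 15.4% higher and 12.7% lower. The highest were Sema3g, Sema6d, Epha5 and Unc5a, and the lowest were Sema3e, Epha2, Sema3d and Robo3, of which Sema3e, Sema3d and Robo3 had no RTOC channel well above background. The median ratio was -0.074 over the guidance genes and 0.0025 over all genes, and the median size of the ratio without its sign was 0.86 and 0.57. A gene that passed the filter in 1 culture only had to differ, so the count was also taken over the 42 guidance genes that were well above background in all 4 channels. There 12 were called, 6 higher (Plxna2, Plxnb1, Sema3g, Sema4a, Sema6d and Unc5a) and 6 lower (Epha2, Epha4, Ephb2, Ephb3, Plxnb2 and Unc5b), where 24.7% of all such genes were called (12.5% higher and 12.2% lower). Without a filter on dim probes, and by the methods' t-test after adjustment, none of the 53 was called.

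**Figure D1:**
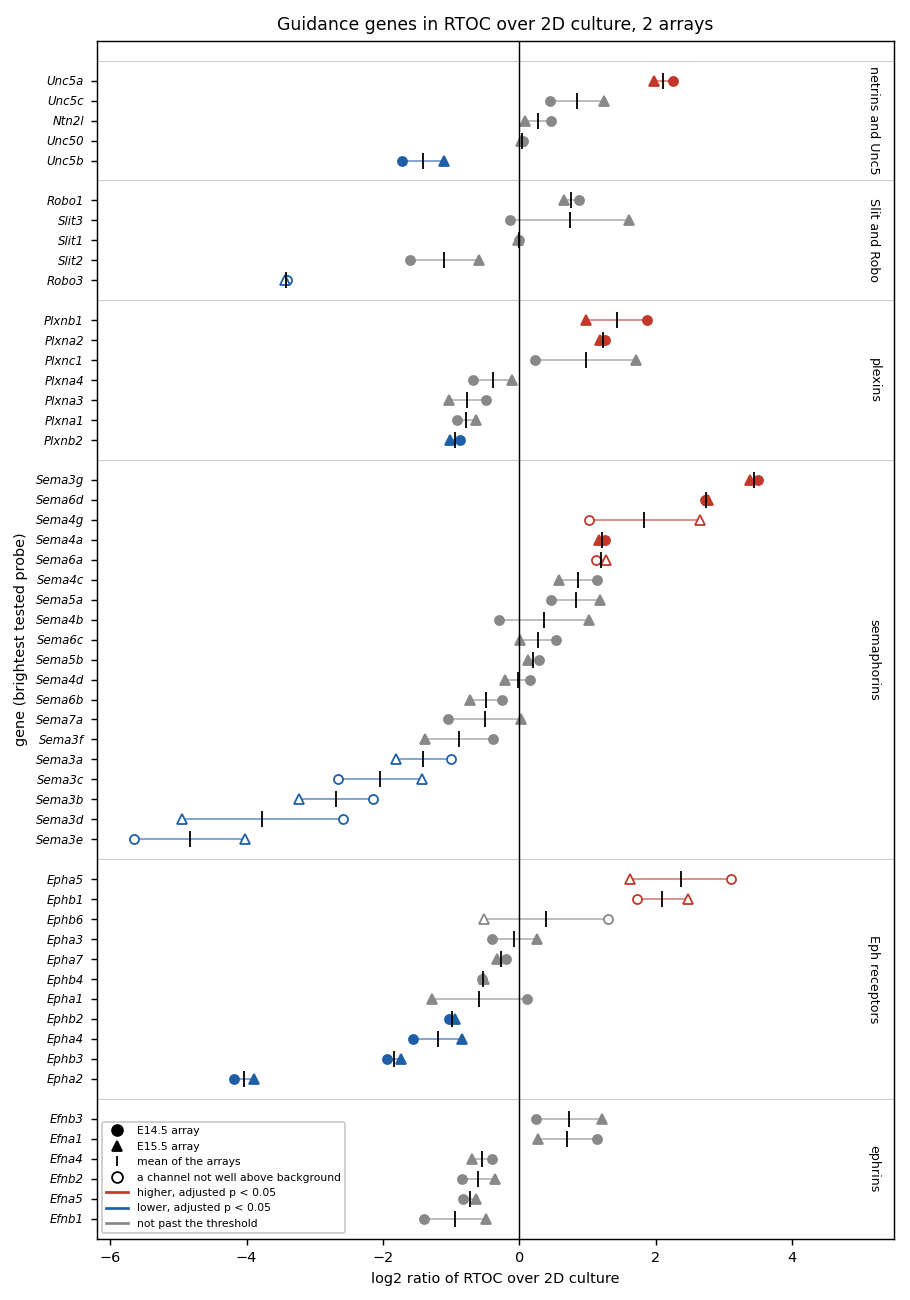
Log2 ratio of RTOC over 2D culture (horizontal axis) for the 53 tested guidance genes, ordered within each family. Circles are the E14.5 array, triangles the E15.5 array and the short bar their mean; red is called higher, blue called lower, and open symbols mark genes not well above background in at least 1 of the 4 channels, whose ratio is no measured fold. The 6 ephrins are all grey, and Sema3g and Sema6d lie furthest to the right with filled symbols.

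Some genes at the far ends of the list are shown by the 250 bases upstream of their annotated start, because Foxn1, the transcription factor that directs thymic epithelium, recognises a motif with the core ACGC and its own transcript was higher in RTOC (a ratio of 2.68 at E14.5 and 2.63 at E15.5). Capitals mark the core on either strand (ACGC or GCGT), sequences are from RefSeq on GRCm38.p6 and run 5′ to 3′ on the gene's strand.
Epha2, chr4:141300971-141301220, plus strand: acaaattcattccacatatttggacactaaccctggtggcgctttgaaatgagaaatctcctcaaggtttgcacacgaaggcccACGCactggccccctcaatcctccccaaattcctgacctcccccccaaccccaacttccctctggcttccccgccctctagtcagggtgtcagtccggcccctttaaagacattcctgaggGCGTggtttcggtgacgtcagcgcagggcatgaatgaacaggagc
Sema3e, chr5:14025026-14025275, plus strand: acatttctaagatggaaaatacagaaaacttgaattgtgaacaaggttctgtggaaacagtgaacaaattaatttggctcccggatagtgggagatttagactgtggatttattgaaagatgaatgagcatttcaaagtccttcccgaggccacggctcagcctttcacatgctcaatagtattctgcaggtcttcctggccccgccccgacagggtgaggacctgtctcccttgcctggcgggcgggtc
Sema3g, chr14:31217623-31217872, plus strand: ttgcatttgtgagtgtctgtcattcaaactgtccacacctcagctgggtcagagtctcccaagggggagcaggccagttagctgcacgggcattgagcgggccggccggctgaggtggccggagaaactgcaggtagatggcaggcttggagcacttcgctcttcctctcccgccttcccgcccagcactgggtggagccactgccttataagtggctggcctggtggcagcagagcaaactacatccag
Sema6d, chr2:124089719-124089968, plus strand: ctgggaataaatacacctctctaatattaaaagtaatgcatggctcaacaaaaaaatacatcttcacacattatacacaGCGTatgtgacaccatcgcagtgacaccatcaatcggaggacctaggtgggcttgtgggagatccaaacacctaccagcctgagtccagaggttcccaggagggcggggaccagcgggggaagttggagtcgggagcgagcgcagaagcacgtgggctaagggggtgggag
Sema6d has 2 starts in the table, of which the first is shown; these bases run past the outer start of the gene at 124089943. Epha2, which was lower in RTOC, has 2 copies of the core in these bases. Sema6d, which was higher, has 1, and Sema3e (lower) and Sema3g (higher) have 0. Of the 65 genes, 56 were in the table of promoters. The letters ACGC on either strand stood in 41 of these 56 windows (73.2%), in 49.8% of all 32851 windows of the same length, in 7 of the 9 windows of genes called higher and in 7 of the 11 of genes called lower. Of 3 other motifs searched on both strands, the TEAD letters GGAATG stood in 10.7% of the members' windows and 12.6% of all, the RBPJ letters TGGGAA in 17.9% and 21.6%, and the AP-1 letters TGANTCA in 3.57% and 6.75%. The members count 1 window for each gene, while the windows of all genes count every listed start, so these shares are not of like units. The difference between them was not tested. Such a match is a description of these letters and not a binding site.

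The ratios of the guidance genes rest on probes of 60 bases, of which the first 30 are shown in lower case for the genes whose upstream bases are shown above.
Epha2 probe: agcccctttggacaaatgtcgctgtcagtg
Sema3e probe: atgatttttatgaggcttttcagttcggta
Sema3g probe: attgttgttgatatttttattgtcatgttg
Sema6d brightest probe: tattaatcccagcgtggtaactctgtgtga
Sema6d second probe: actttggaaatctgcataatgtgtcttcat
The pair of Sema6d probes share no stretch of 15 bases, and nor does any other of the 24 pairs of tested probes of 1 guidance gene.

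None of the 6 tested ephrin genes was called. For Efnb1, the signal in 2D culture was 13.45 at E14.5 and 12.78 at E15.5, and in RTOC it was 12.05 and 12.29; values are given in this order of stages throughout. The ratio was thus negative on both arrays, with a mean of -0.94 ± 0.65 (SD, n = 2 arrays) that did not pass (adjusted p = 0.0768, limma). Efnb2, the ligand carried by arterial endothelium and by the mesenchyme around the early thymus, read 13.89 and 13.70 in 2D culture and 13.05 and 13.34 in RTOC, a mean ratio of -0.60 ± 0.35 (adjusted p = 0.15). Its second probe gave -0.92 ± 0.15 and was called lower (adjusted p = 0.046), so the probes differ in call and not in sign. Efnb3 was brighter in RTOC on both arrays, with 7.48 and 6.54 in 2D culture against 7.73 and 7.75 in RTOC, but the step was small at E14.5 (0.24) and larger at E15.5 (1.21; adjusted p = 0.146). Of the A-type ephrins, Efna1 had a positive mean (0.70) and Efna4 (-0.55) and Efna5 (-0.73) negative means, and Efna2 and Efna3 were not tested.

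The Eph receptors held 6 calls among 11 tested genes, 2 higher and 4 lower, where 28.1% of all genes tested were called. Of the 8 well above background in all 4 channels, 0 were higher and 4 lower, where 24.7% of all such genes were called. Epha2, a receptor of A-type ephrins that is common in epithelia, fell furthest. Its signal was 14.80 and 14.25 in 2D culture and 10.62 and 10.37 in RTOC. The cultures did not overlap, and the mean ratio was -4.03 ± 0.21 (SD, n = 2), 16.4-fold lower in RTOC (SE 0.26, adjusted p = 0.00161, limma). Epha2 lies at chr4:141301221-141329384 in GRCm38.p6; exons were not given. Epha4, which binds ephrins of both types, read 13.08 and 12.58 in 2D culture and 11.52 and 11.74 in RTOC and fell 2.29-fold (mean -1.20 ± 0.51, adjusted p = 0.0338), and its second probe was lower as well (-1.73, adjusted p = 0.011).

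Among the EphB receptors, Ephb2 and Ephb3 fell and Ephb1 was higher in RTOC. Ephb3 read 11.05 and 11.20 in 2D culture and 9.10 and 9.47 in RTOC, a 3.57-fold fall (mean -1.84 ± 0.15, adjusted p = 0.00659). Ephb2 fell 1.98-fold, from 9.68 and 9.18 to 8.65 and 8.24 (mean -0.99 ± 0.063, adjusted p = 0.037). These are the EphB receptors best known from thymic epithelium, and each was lower in RTOC on both arrays. Ephb2 lost its call under other scalings, with a mean of -0.46 after normexp background correction and loess. Ephb1 was too dim in both 2D channels to count as well above background there, where it read 5.45 and 4.85, and rose above it in RTOC, at 7.17 and 7.33. It was 1.21-fold higher in RTOC (adjusted p = 0.00706, limma). A fold of this kind sets the bright culture against the dim one. Dim signals are first raised to the lowest signal that counts as well above background, and the fold is given as at least N-fold. For Ephb1, Sema3a, Sema3c and Sema6a no signal needed raising. Their folds are the ratios after normexp and loess and are no bounds. All such folds come from single channels after loess and Aquantile and are open to dye bias. The adjusted p beside such a fold, here and below, is of the ratio after quantile normalization and does not test the fold. Ephb1 passed the filter through RTOC alone and so had to be higher, and after normexp and loess its adjusted p was 0.189 (limma). Ephb4, the receptor of venous endothelium, was -0.55 and -0.51 on the arrays and did not pass (adjusted p = 0.163), although its second probe, well above background in 3 of 4 channels, was called lower (-1.33 ± 0.055, adjusted p = 0.016). Ephb6, which lacks kinase activity, was 1.30 at E14.5 and -0.52 at E15.5, well above background in 3 of 4 channels, with a mean of 0.39 ± 1.29 (adjusted p = 0.56).

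Epha5, an A-type receptor of the nervous system, was called higher (3.10 and 1.63, adjusted p = 0.0121) but was well above background in only 3 of 4 channels, with 2D signals of 4.01 and 6.95. Epha1, Epha3 and Epha7 had means of -0.59, -0.074 and -0.26 and were not called, and the sign of the mean turned for Epha3 under both kinds of median centring and for Epha7 under normexp with median centring alone. Epha6, Epha8 and Epha10 were not tested.

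**Figure D2:**
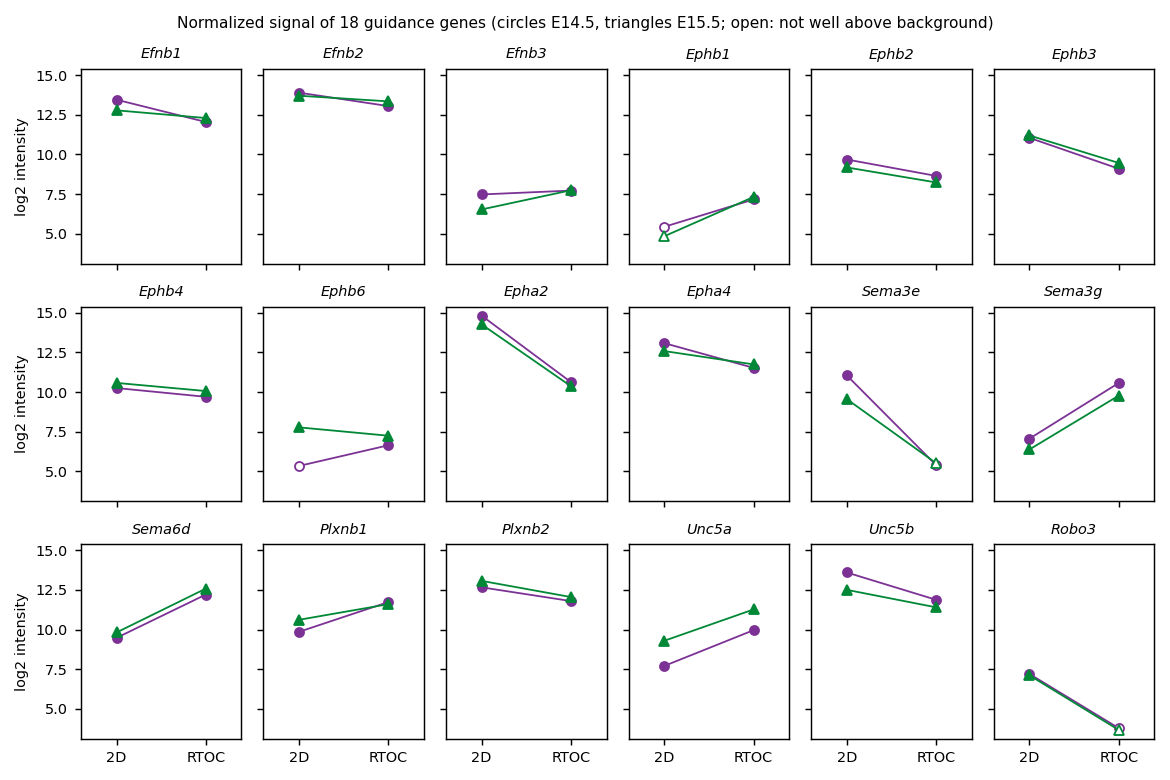
Normalized log2 intensity (vertical axis) in 2D culture and RTOC for 18 guidance genes; lines join the channels of an array, with E14.5 in purple circles and E15.5 in green triangles, and open symbols are not well above background. Levels cannot be set against each other between panels, because each probe has its own brightness. The lines of Epha2, Sema3e and Robo3 fall and those of Sema3g, Sema6d and Unc5a climb on both arrays, whereas the lines of Ephb6 run in opposite directions.

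The semaphorins held 10 calls among 19 tested genes, 5 higher and 5 lower, where 28.1% of all genes tested were called. The 5 that were lower were class 3 members, the secreted semaphorins, and none of them was well above background in all 4 channels. Sema3a, Sema3c, Sema3d and Sema3e passed the filter through 2D culture alone and so had to be lower in RTOC, and their number is no result about the class. Of the 12 semaphorins that were well above background in all 4 channels, which include only Sema3f and Sema3g of class 3, 3 were higher and 0 lower. Sema3e, a ligand of plexin D1 that acts on vessels and on migrating thymocytes, read 11.04 and 9.55 in 2D culture. In RTOC it read 5.40 and 5.52, which was not well above background on either array. It was therefore at least 2.99-fold lower in RTOC (adjusted p = 0.00233, limma). A further probe, listed in the files under a clone name (6430702L12) and so outside the name rule, matched Sema3e by accession and had ratios of -3.90 and -2.78 (mean -3.34 ± 0.79, adjusted p = 0.00313), with 3 of 4 channels well above background. The name rule found no probe of Plxnd1, so it was not analysed here.

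Sema3d, another secreted class 3 member, read 7.15 and 8.78 in 2D culture and was not well above background in RTOC, at least 1.46-fold lower (adjusted p = 0.00826). Sema3c and Sema3a, ligands that signal with neuropilins, were called lower (adjusted p = 0.0138 and 0.0237, limma). After normexp and loess they were 1.41-fold and 1.1-fold lower, and neither passed there (adjusted p = 0.133 and 0.478, limma). A second Sema3c probe, with 3 of 4 channels well above background, gave -0.67 ± 0.86 and did not pass (adjusted p = 0.211). Sema3b fell on both arrays, from 7.95 and 9.81 to 5.81 and 6.57 (mean -2.69 ± 0.77, adjusted p = 0.0052), with 3 of 4 channels well above background. Sema3f was -0.39 and -1.38 and did not pass (adjusted p = 0.0969). Sema3d, Sema3a, Sema3e and Sema3c lie near each other on chromosome 5, within 5347108 bp between positions 12383161 and 17730268 of GRCm38.p6.

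Sema3g, also of class 3, was the highest of the guidance genes. Its signal was 7.06 and 6.38 in 2D culture and 10.57 and 9.77 in RTOC, well above background in all 4 channels. The mean ratio was 3.45 ± 0.082 (SD, n = 2), 10.9-fold higher in RTOC (SE 0.25, adjusted p = 0.00174, limma), and 1.60 after normexp and loess, which still passed. Sema3g is known from endothelium. Of 10 endothelial markers, 8 were called higher and 0 lower. Cdh5, Pecam1, Tek and Tie1 had no 2D channel well above background, passed the filter through RTOC alone and so had to be higher. Of the 5 markers well above background in all 4 channels, 3 were higher and 0 lower, where 12.5% of all such genes were higher and 12.2% lower. The summed intensity of all 10 markers was 13817 in 2D culture and 11187 in RTOC at E14.5, so lower in RTOC, and 3949 and 16361 at E15.5. The E14.5 sum in 2D culture came mostly from Flt1, a receptor of vascular growth factors, which read 13.52 there, with Kdr next at 10.03. The ratio of Flt1 was -3.16 and -0.58 and was not called, and the other 9 markers had positive ratios on both arrays. The part of endothelial cells in the Sema3g result was not tested.

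Outside class 3, 4 semaphorins that span the membrane were called higher and none lower. Of these, Sema4g and Sema6a passed the filter through RTOC alone and so had to be higher, and their number is no result about these classes. Sema6d, a ligand of plexin A1, read 9.48 and 9.81 in 2D culture and 12.20 and 12.57 in RTOC. The ratios of the arrays were nearly equal, at 2.72 and 2.76 (mean 2.74 ± 0.025, 6.69-fold, adjusted p = 0.00245), and the second probe gave 2.89 ± 0.27 (adjusted p = 0.00245). Sema4a, which binds B-type plexins and plexin D1 and acts on T cells, was 2.32-fold higher (1.25 and 1.17, adjusted p = 0.0211). Sema4g and Sema6a, members of the same membrane-spanning classes, had no 2D channel well above background. Sema4g was at least 1.14-fold higher in RTOC (adjusted p = 0.0294). Sema6a was 1.19-fold higher (adjusted p = 0.0223), and after normexp and loess its adjusted p was 0.221 (limma). Sema4b, Sema4c, Sema5a, Sema5b and Sema6c had positive means and Sema4d, Sema6b and Sema7a negative means, none of which passed; that of Sema4d turned sign under median centring. Another probe of Sema5b had no 2D channel well above background and was at least 1.09-fold higher (adjusted p = 0.00627) beside a brightest probe at 0.21. Sema4f was well above background only in 2D culture at E14.5 and was not tested.

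The plexins, receptors of the semaphorins, split as well. Plxnb1, a receptor of Sema4d, was 2.69-fold higher in RTOC (9.86 and 10.61 in 2D culture, 11.73 and 11.59 in RTOC, adjusted p = 0.0252), and its second probe was higher too (1.70 ± 0.81, adjusted p = 0.021). Plxnb2, of the same subfamily, was 1.92-fold lower (12.66 and 13.06 against 11.79 and 12.04, adjusted p = 0.0428), with a second probe at -0.95 (adjusted p = 0.0425). Plxna2 was called higher (1.26 and 1.18, adjusted p = 0.0207), but its other probes, at 0.42 and 0.82, were not. Plxna1, Plxna3 and Plxna4 had negative means (-0.78, -0.76 and -0.39), that of Plxna4 turning positive after normexp, and Plxnc1 had a positive mean (0.97); none was called. Plxnb3 was not tested.

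Of the Slit and Robo genes, only Robo3 was called among 5 tested. Robo3, a receptor known from axons that cross the midline, read 7.20 and 7.12 in 2D culture. In RTOC it read 3.79 and 3.68, not well above background on either array, and was at least 1.25-fold lower (adjusted p = 0.00174, limma). Robo1 was 0.87 and 0.65 (adjusted p = 0.0748). The ligand Slit2 was -1.60 and -0.59 (adjusted p = 0.0578), and a second Slit2 probe with a like mean passed (-1.11 ± 0.50, adjusted p = 0.041). Slit1 was at -0.011, a value whose sign depends on the scaling, and Slit3 was -0.14 at E14.5 and 1.61 at E15.5. None of the 6 probes of Robo2 was tested.

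The netrin receptors Unc5a and Unc5b moved in opposite directions. Unc5a climbed from 7.71 and 9.29 in 2D culture to 9.96 and 11.26 in RTOC, 4.32-fold (mean 2.11 ± 0.20, SE 0.26, adjusted p = 0.00458). Unc5b, which is also known from endothelium, fell from 13.59 and 12.50 to 11.87 and 11.40, 2.66-fold (mean -1.41 ± 0.44, SE 0.28, adjusted p = 0.0195). On both arrays the difference between cultures was thus upward for Unc5a and downward for Unc5b. Unc5c had a mean of 0.85 (adjusted p = 0.0874) and Unc5d was not tested. Of the ligands, Ntn2l (now named Ntn3) was tested and had a mean of 0.28 (adjusted p = 0.462), while Ntn1 and Ntn4 were not tested. The rule also took Unc50 (0.045, not called) and Unc5cl (not tested), which share the name and are not netrin receptors.

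**Figure D3:**
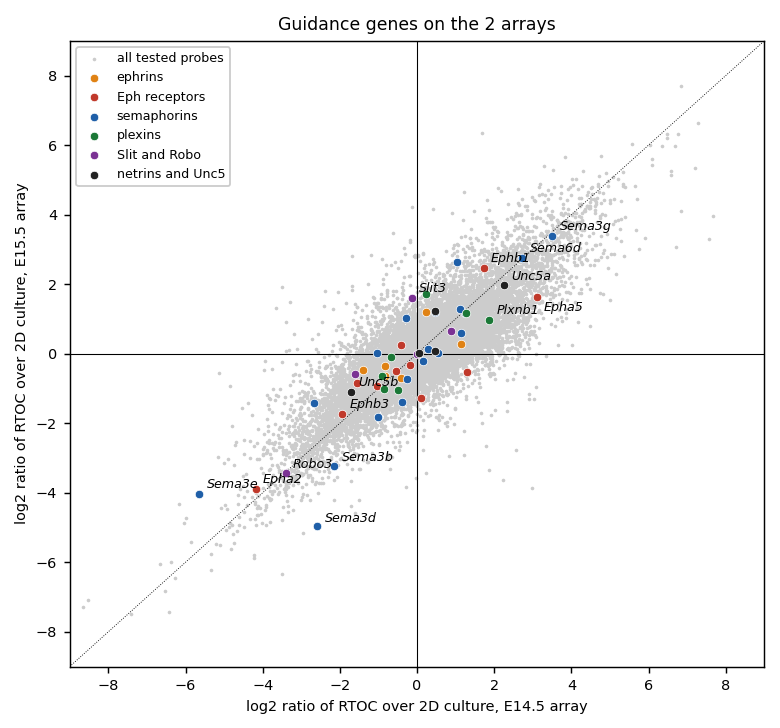
Log2 ratio of RTOC over 2D culture on the E14.5 array (horizontal axis) and the E15.5 array (vertical axis) for the 53 guidance genes, coloured by family, over all 23685 tested probes in grey; the dotted line marks equal ratios. Of the 53 genes, 21 lie in the upper right, 25 in the lower left and 7 where the arrays have opposite signs.

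The arrays gave the same sign for 46 of the 53 genes, 21 positive and 25 negative. Opposite signs were found for 7 (13.2%), against 20.4% of all genes tested. Among the 42 guidance genes well above background in all 4 channels, a difference of at least 2-fold the same way on both arrays was reached by 5 upward (Plxna2, Sema3g, Sema4a, Sema6d and Unc5a) and 3 downward (Epha2, Ephb3 and Unc5b), where 8.61% and 8.42% of all such genes did so (17% either way). Among these 42 genes the ratios of the arrays differed most for Slit3, Plxnc1 (0.23 and 1.71) and Epha1, and least for Slit1, Unc50 and Sema6d. With 1 array for each stage, no difference between stages could be tested. Further probes were tested for 18 genes, where 28.8% of all tested probes were called (15.2% higher and 13.6% lower). Of these 21 probes, 17 had the sign of the brightest probe and 14 its call; the sign differed for 1 probe each of Epha3, Plxnc1, Sema6c and Slit3.

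The treatment of the background set the size of many ratios. After normexp correction of the mean signals and loess within each array, 11 of the 22 calls remained: Epha2, Epha4, Ephb3, Plxna2, Plxnb1, Plxnb2, Sema3e, Sema3g, Sema6d, Unc5a and Unc5b. Efna5 was called there in addition. Among all named genes, 18.9% were called with this treatment (10.5% higher and 8.37% lower), and of the guidance genes 5 were higher and 7 lower. Epha2 changed little, from -4.03 to -3.76, and Sema6d went from 2.74 to 2.24. Unc5a went from 2.11 to 1.28 and Ephb3 from -1.84 to -1.27. Much smaller means were found for genes given above only as bounds, Robo3 from -3.42 to -0.40 and Sema3d from -3.77 to -0.56. Of the called genes with neither channel of a culture well above background, Sema3e alone kept its call. The sign turned under at least 1 of 4 other scalings for 7 of the 53 genes and for 0 of the 22 called. Centring each array on its median moved the median of all genes from 0.0025 to 0.15 and that of the guidance genes from -0.074 to 0.081.

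**Figure D4:**
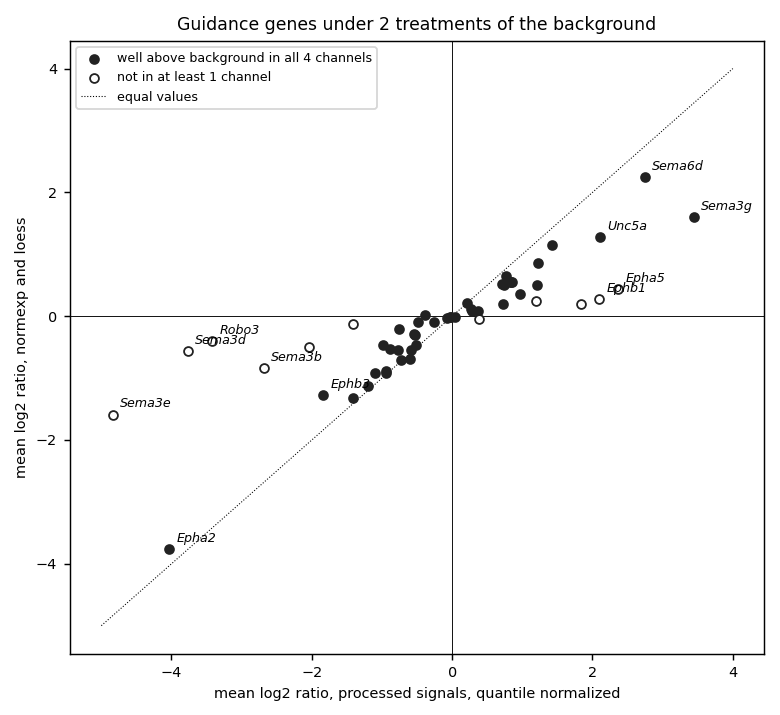
Mean log2 ratio of RTOC over 2D culture for the 53 guidance genes from processed signals (horizontal axis) and after normexp and loess (vertical axis). Filled points are well above background in all 4 channels, open points are not, and the dotted line marks equal values. Epha2 and Sema6d stay near the line, while the open points Robo3, Sema3d and Sema3b lie much closer to 0 on the vertical axis than on the horizontal.

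The partners of these families were taken from lists of known co-receptors and signalling proteins. The share of all named genes called, to set beside each list, was 28.1% (15.4% higher and 12.7% lower). Of 25 partners of the semaphorins and plexins tested (30 listed), 1 was called higher and 9 lower, with a median ratio of -0.73. Mical2 (-3.09), an actin-oxidising enzyme of the family that acts below plexins, Met (-2.98), a receptor kinase that pairs with plexin B1, and Rnd3 (-2.22), a small GTPase, fell furthest, and the co-receptor Nrp1 fell too (-1.21 and -1.43, adjusted p = 0.0175). Cd72, a lymphocyte receptor for Sema4d, was higher (1.88, adjusted p = 0.0154). Nrp2 had a mean of -0.99 and did not pass (adjusted p = 0.0977). Of 22 ephrin and Eph partners tested (25 listed), 2 were higher, the adaptor Nck1 (1.55) and the exchange factor Tiam1 (0.96), and 2 lower, Chn1 (-1.18), which acts below Epha4, and the ephrin-cleaving protease Adam10 (2.01-fold lower), with a median of -0.13. Of 16 Slit and netrin partners tested (20 listed), 4 were higher and 3 lower. Of these, Ntng1 passed the filter through RTOC alone and so had to be higher. Among the 15 well above background in all 4 channels, 3 were higher and 3 lower. Robo4, the Robo receptor of endothelium, rose 8.1-fold (2.73 and 3.30, adjusted p = 0.00248), Gpc1, a proteoglycan that binds Slits, rose 2.53-fold, and Ntng1 was at least 1.29-fold higher. Flrt2, a ligand of Unc5 receptors, fell 4.75-fold (-1.74 and -2.76, adjusted p = 0.00793), and Enah (-0.95) and Srgap1 (-0.94), which act on actin below Robo, were lower as well.

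Markers of the cell types that the cultures could hold also differed between the cultures, in both directions. All 13 thymic epithelial markers were well above background in every channel, 8 higher and 2 lower in RTOC, with summed intensities of 315607 to 645402 in 2D culture and 1106360 to 1107770 in RTOC. Of 7 pericyte and smooth muscle markers tested, 5 were lower and 1 higher, with sums of 564201 to 598865 in 2D culture and 50016 to 72350 in RTOC; Des was not well above background in any channel. Fibroblast markers split, 4 of 10 higher and 5 lower (sums of 382605 to 547467 and 300220 to 318052). Haematopoietic markers were higher for 6 of 9 tested (11422 to 12159 and 56248 to 57021), with Cd2 above background nowhere. Neural and Schwann cell markers were higher for 1 and lower for 3 of 8 tested (54054 to 78320 and 15036 to 19533). The parathyroid genes Pth and Chga were higher (1865 to 3175 and 46685 to 100827 over the list), while Gcm2 and Casr were well above background in no channel. The part of these cells in the guidance results was not tested.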

How the data were processed

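Total RNA of 2 pairs of cultures was hybridized to 2 two-colour Agilent arrays, RTOC in Cy5 and 2D culture in Cy3. The authors extracted the scans with Agilent Feature Extraction (version 11.5.1.1 per the submitters' processing notes). For each spot the deposited files give intensity values in both channels: the mean signal, the local background and a processed signal, from which the authors' software had subtracted background and spatial trend and which it had balanced between the dyes. The deposited log10 ratio sets Cy5 over Cy3 of the processed signals, and the deposited p-value of that ratio, from an error model of each array, was used in no test. The deposited series values are the log10 ratio of the same processed signals.

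Spots of control probes were left out, as were outlier spots (5 at E14.5, 1 at E15.5). The processed signals of the 4 channels were quantile normalized, as the methods name for all arrays, the log2 ratio (Cy5 over Cy3) was formed and averaged over the spots of a probe. Of 41174 probes, 23685 had at least 1 channel well above background on each array and were tested with limma 3.58.1 in R 4.3.3 (lmFit with an intercept, eBayes, two-sided, Benjamini-Hochberg adjustment, threshold 0.05). Each ratio pairs the cultures of 1 array. Where neither channel of a culture was well above background, the change is given as at least N-fold, or as a plain fold where no dim signal needed raising. Names came from a RefSeq table of GRCm38.p6: 22951 probes matched by accession, 6659 by symbol and 3109 by an older symbol, and 8455 kept their name in the files. Figures and counts used Python 3.11.15, pandas 2.3.3 and matplotlib 3.10.9. The fit was also run on data simulated under its own model of the spread, which checks the code and not whether that model holds for these arrays.

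The small number of arrays and the signal over background limit the precision. Well above background were 53.1% (E14.5) and 53.5% (E15.5) of probes in 2D culture and 56.3% and 60.9% in RTOC. The median SD between repeat spots was 0.10 (log2) on each array, and the ratios of the arrays had a Pearson r of 0.827 across the tested probes, which are not independent replicates.

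In each family the genes named with full values were the up to 3 highest and up to 3 lowest called with the same sign on both arrays, and every EphB and ephrin-B gene. The members and the partner and marker lists were chosen with earlier results of these data known; 1 marker is not reported here. Alternatives were normexp (offset 50) with loess, loess and Aquantile, or median centring; processed signals centred on the median; the deposited log ratios and series values; other filters on dim probes; outlier spots kept; leaving out each array; robust eBayes with a trend; a fit with no replicate block; the methods' t-test; and the median over the probes of a gene.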

Additional observations from a re-analysis of the deposited data

Results flagged for a closer look

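For 7 guidance genes the E14.5 and E15.5 arrays pointed in opposite directions; with 1 array for each stage the difference was not tested. The log2 ratio of RTOC over 2D culture was 0.11 at E14.5 and -1.29 at E15.5 for Epha1, and -0.41 and 0.26 for Epha3, whose sign also differs between probes. Ephb6, an Eph receptor without kinase activity, was at 1.30 and -0.52 and its 2D channel was not well above background at E14.5. The Slit ligand Slit3 was at -0.14 and 1.61, and the membrane semaphorin Sema4b at -0.30 and 1.02. Sema4d was at 0.16 and -0.22, and Sema7a, a semaphorin held by a lipid anchor, at -1.05 and 0.027. None of the 7 was called.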

How the results depend on the processing

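The counts of guidance genes called (10 higher, 12 lower) and of probes (6820) held within 1.5 times with outlier spots kept, with the deposited log ratios or series values, with median centring of the processed signals, and with trend and robust eBayes fitting. In a refit on the probes well above background in all 4 channels alone, 7 of 42 members were lower and 7 higher, Slit2 and Sema4c being added, where 1794 of all 12074 genes were higher (14.9%) and 1789 lower (14.8%). Fitted with no replicate block, so that the array no longer pairs the cultures, 4033 probes, 7 higher and 6 lower members were called; 9 lost their call (Epha4, Epha5, Ephb2, Plxnb2, Sema3a, Sema3c, Sema6a, Unc5a and Unc5b). Centring the processed signals on the median ended the calls of Ephb2 and Plxnb2. Normexp and loess, with or without Aquantile, called 3709 probes, 5 higher and 7 lower members, and turned the mean of Ephb6 to -0.051. Normexp and median centring called 2904 probes, 76.4% of them higher against 52.9% above, with 6 higher and 2 lower members. Without a filter on dim probes limma called 0 probes and 0 members in either direction (10666 probes at an unadjusted p below 0.05), and the methods' t-test called 0 after adjustment (3539 unadjusted). The median ratio of the members reversed to 0.081 with the processed signals centred on the median and to 0.080 with normexp and median centring, was -0.17 over the median of all probes of a gene, and ranged from -0.19 to -0.11 with 1 array left out. The ratio of Ephb6 was -0.52 without the E14.5 array and 1.30 without the E15.5 array. Over all alternatives with a test, adjusted p-values ranged from 4.64e-05 to 0.327 for Epha2, from 0.000152 to 0.324 for Sema6d and from 4.99e-05 to 0.327 for Sema3g. The cause of these changes was not tested. With 1 array left out no test was possible, and 12 members were too dim to test.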
